A study of Mus musculus with 6 samples.

Results

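The C/EBP family of granulocytic transcription factors and the Tribbles pseudokinases that act on them were followed as 8 genes, Cebpa, Cebpb, Cebpd, Cebpe, Cebpg, Trib1, Trib2 and Trib3. They were taken by gene name from a deposited table of 16440 mouse genes. All 8 were in the table, and all 8 passed the filter on low values (a scaled fragment value of 1 or more in 3 or more libraries), as did 14595 genes in all. RNA-seq had been performed on sorted BM cells of FVB N/J mice, with 3 biological replicates per group, to compare c-Kit+ acute promyelocytic leukemia (APL) progenitors with normal myeloid progenitors (MPs). The MPs were Lin-Sca-1-c-Kit+ cells of normal BM. The APL progenitors were c-Kit+ GFP+ cells from hMRP8-PML/RARα transgenic mice, in which the human MRP8 promoter, active in myeloid cells, drives the PML/RARα fusion. These cells had been marked with the GFP-expressing retroviral vector MigR1 and expanded by transplantation into syngeneic mice, steps that the normal MPs did not go through, and no drug treatment is labelled for either group. Recipients were 6 to 10 weeks old at transplantation. The age of the mice that gave the MPs and the number of primary leukemias behind the 3 APL replicates are not given in the sources used here. Summed over the 16440 genes, 23606024, 22976905 and 26932327 fragments were assigned in MP 1 to 3 and 20608715, 28382785 and 20911902 in APL 1 to 3. These sums were recovered from the smallest step of each deposited column.

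C/EBP proteins are basic leucine zipper (bZIP) factors that bind DNA as dimers. C/EBPα directs progenitors into the granulocyte-macrophage lineage and slows their division, C/EBPβ takes over much of this work when granulocytes are produced on demand, and C/EBPε drives the later steps at which secondary granules are made. Tribbles proteins have a kinase-like fold with little or no kinase activity and act as scaffolds: TRIB1 and TRIB2 bring C/EBPα to the COP1 ubiquitin ligase for degradation, and either can cause acute myeloid leukemia in mice when overproduced. TRIB3 is best known as a gene of the stress response run by ATF4 and CHOP. What was measured here is mRNA, so protein amounts and degradation were not observed.

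Cebpa, Cebpb, Cebpd, Trib1 and Trib3 were upregulated in c-Kit+ APL progenitors, and Trib2 was downregulated until a handful of fragments remained. Cebpe did not pass the test, and Cebpg passed it at a change under the fold threshold. A gene was called when limma's test, adjusted by the Benjamini-Hochberg method over all 14595 genes, gave p under 0.05 and the fold change was over 1.5. By this rule 5 of 8 genes rose, against 21.7% of all genes tested, and 1 of 8 fell, against 24.4%. In all, 6 of the 8 were called (75.0%), where 46.1% of all genes were. At any fold change the adjusted p was under 0.05 for 7 of the 8, and for 67.0% of all genes. APL and MP libraries were fully separated for the same number, 7 of 8, against 70.9% of all genes. Of these, 6 were higher in every APL library, against 31.1% of all genes, and 1 was lower in every APL library, against 39.8%. With 3 libraries against 3, the two-sided exact permutation test cannot give p under 0.1, and it gave 0.1 for each of these 7 genes and 0.4 for Cebpe.

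**Figure D1:**
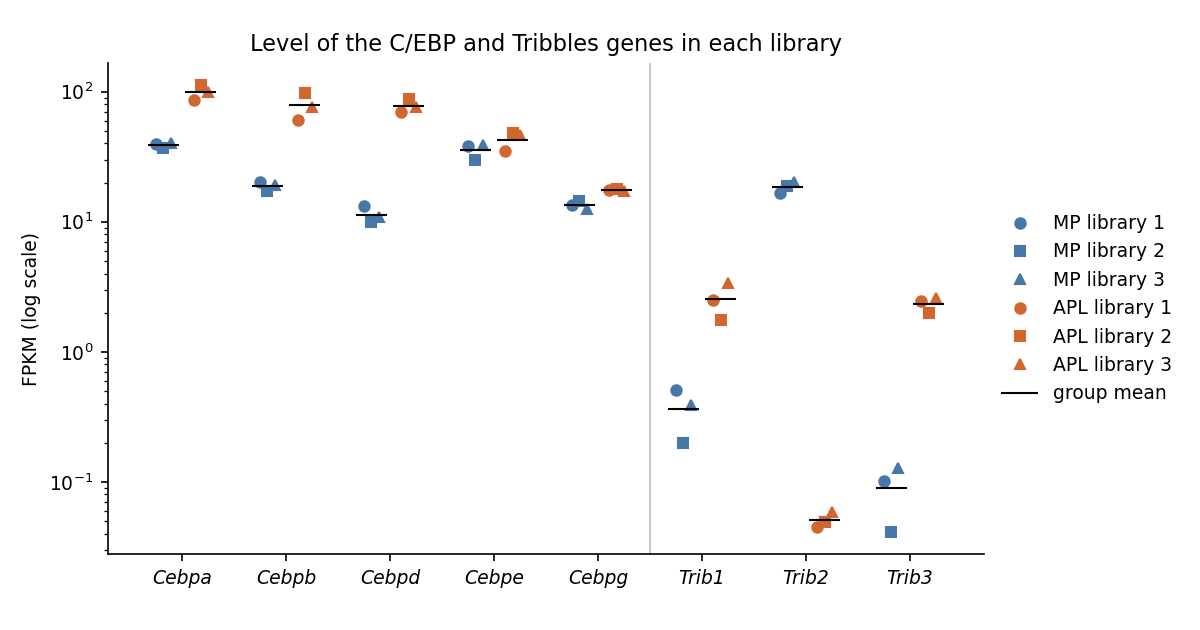
FPKM (fragments scaled to transcript length and library depth, log axis) of each gene in each library, with the group mean as a bar and the replicate number as the symbol. The APL libraries lie above all MP libraries for Cebpa, Cebpb, Cebpd, Cebpg, Trib1 and Trib3 and below them for Trib2, where they hold 0.0450 to 0.0585 FPKM, and only the Cebpe libraries overlap.

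Cebpa (chr7:35119293-35121928, GRCm38.p6, NCBI gene 12606), the lineage-directing member, had the highest mean level of the 8 genes in both groups. Its mRNA level was 39.3, 36.7 and 40.6 FPKM in MP 1 to 3 and 85.7, 112 and 99.0 FPKM in APL 1 to 3. The lowest APL library was above the highest MP library by a wide margin, and MP libraries lay close together. The log2 fold change, on the log2(scaled fragments + 1) scale used for every fold change below, was 1.34 (SE 0.11), a 2.53-fold rise with a 95% interval of 2.13 to 3.00 (limma, adjusted p = 6.4e-06). A change of at least this size in either direction was frequent in this comparison, since 25.6% of all genes tested had a larger one.

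Cebpb (chr2:167688915-167690432, gene 12608), the member used in emergency granulopoiesis, had 20.3, 17.2 and 19.3 FPKM in the normal MPs. It had 60.7, 98.2 and 76.6 FPKM in the APL progenitors, which differed among themselves more than the MPs did but did not reach down to them. The log2 fold change was 1.96 (SE 0.16), or 3.88-fold (adjusted p = 7.9e-06).

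Cebpd (chr16:15887286-15889545, gene 12609) encodes C/EBPδ, a member that is induced by inflammatory cytokines and in growth-arrested cells. It changed most within the family. Its level was 13.2, 9.97 and 10.9 FPKM in the MPs and 69.6, 88.5 and 75.7 FPKM in the APL cells, again with a wide gap between groups, and the log2 fold change was 2.78 (SE 0.12), or 6.87-fold (adjusted p = 1.7e-07). The deposited table gives Cebpd 1 shared locus with 2310008H04Rik, which RefSeq names Spidr and places across Cebpd, and whether the fragments were counted by strand is not stated in the sources used here. 2310008H04Rik itself had 12.3 ± 0.437 FPKM (SD, n = 3) in MPs and 17.1 ± 0.739 in APL progenitors, a log2 fold change of 0.47 (SE 0.07) that stayed under the fold threshold.

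Cebpe (chr14:54710363-54712174, gene 110794), the factor of late granulocytic maturation, gave 38.2, 29.7 and 39.1 FPKM in the MPs and 34.8, 47.8 and 46.1 FPKM in the APL progenitors. MP 2 was the lowest library and APL 1 fell within the MP range, so the groups overlapped. The log2 fold change of 0.24 (SE 0.16) did not pass the test (adjusted p = 0.21), and its 95% interval of -0.12 to 0.59 runs from a 0.921-fold to a 1.51-fold level.

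Cebpg (chr7:35046422-35056566, gene 12611) lies 62.7 kb from Cebpa on the same chromosome and encodes a short C/EBP protein that lacks an activation domain of its own and pairs with the other members. It had 13.4, 14.5 and 12.6 FPKM in the MPs and 17.4, 17.9 and 17.1 FPKM in the APL progenitors. All 3 APL libraries were above all 3 MP libraries, and both groups were tight. The 1.34-fold difference (log2 0.42, SE 0.08, adjusted p = 0.0012) was under the 1.5-fold threshold and Cebpg was therefore not called, as was the case under each of the 17 alternatives.

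Of the Tribbles genes, Trib2 (chr12:15791725-15816962, gene 217410) carried the largest change. It had 16.6, 18.8 and 20.3 FPKM in the normal MPs, about the level of Cebpb there, and 0.0450, 0.0492 and 0.0585 FPKM in the APL progenitors. In fragments this was 1839, 2060 and 2360 in MP 1 to 3 and 4, 6 and 5 in APL 1 to 3, just above a floor of 3 fragments per library, so that the remaining level in APL cells was measured on very few fragments. The 3 APL libraries were all near the floor and the 3 MP libraries all far above it. Mean FPKM was 365-fold lower in APL progenitors, and the log2 value fell by 8.25 (SE 0.17, adjusted p = 5.6e-09). Only 0.233% of all genes tested had a larger change in either direction. On the FPKM scale with a pseudocount of 0.1, which weighs more against so low a value, the log2 fold change was -6.95.

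Trib1 (chr15:59648654-59657099, gene 211770), the other Tribbles gene known to promote C/EBPα degradation, went the opposite way from a low level. It held 0.506, 0.198 and 0.387 FPKM in the MPs, which were 54, 21 and 44 fragments, and 2.51, 1.77 and 3.37 FPKM in the APL progenitors, which were 217, 209 and 276 fragments. The libraries of both groups were spread widely but stayed apart. The log2 fold change was 2.83 (SE 0.35), or 7.13-fold with a 95% interval of 4.10 to 12.4 (adjusted p = 1.0e-04). Genes of chromosome 15 were higher as a whole in the APL progenitors: the median log2 fold change of the 563 tested was 0.46, against -0.10 for all genes. Trib1 lay 2.37 above that chromosome's median, and 6.57% of the chromosome's genes had a larger log2 fold change. The part of the chromosome in the Trib1 difference was not tested.

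Trib3 (chr2:152337425-152344060, gene 228775) was the least abundant of the 8 in MPs, at 0.101, 0.0411 and 0.127 FPKM, and rose to 2.44, 2.00 and 2.61 FPKM in the APL progenitors. These were 5, 2 and 7 fragments in MP 1 to 3 and 98, 109 and 100 fragments in APL 1 to 3. MP 2 was under the floor of 3 fragments, the other MP libraries were near it, and the APL libraries were close to each other. The size of the fold change therefore depends on the pseudocount. The log2 fold change was 4.49 (SE 0.36, adjusted p = 5.9e-06), or 22.5-fold with a 95% interval of 12.8 to 39.6. With a pseudocount of 4 in place of 1 it was 3.82, and on the FPKM scale with a pseudocount of 0.1 it was 3.71.

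**Figure D2:**
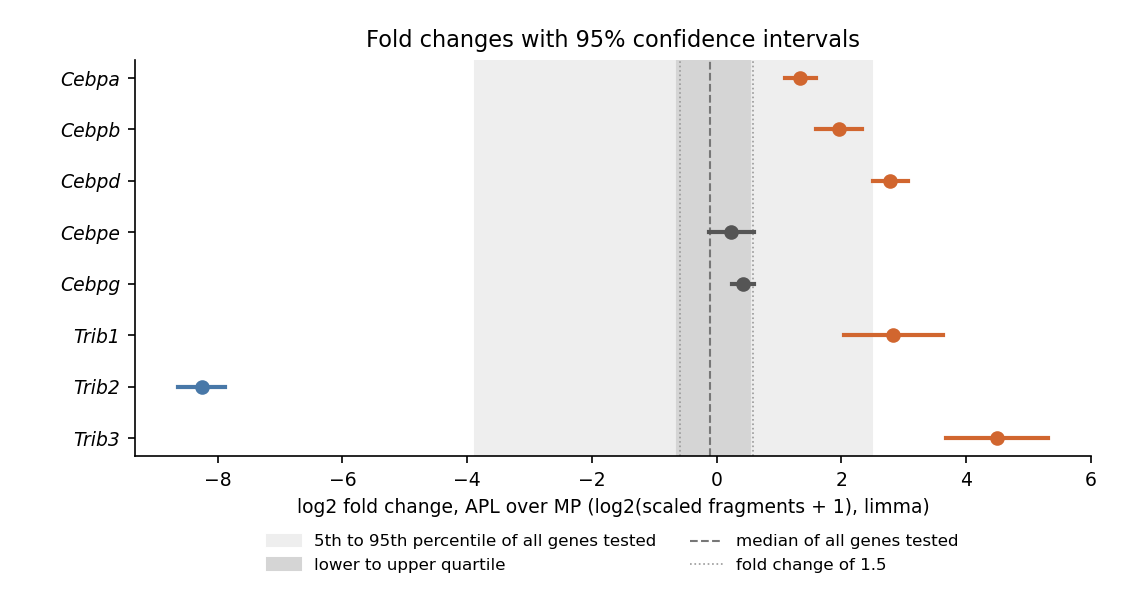
log2 fold change of each gene, APL over MP, with its 95% confidence interval from limma, over the spread of all genes tested (grey bands) and their median of -0.10 (dashed). Trib2 at -8.25, Trib3 at 4.49, Trib1 at 2.83 and Cebpd at 2.78 lie outside the band from the 5th to the 95th percentile, while the intervals of Cebpe and Cebpg reach the 1.5-fold line (dotted) on the right.

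The promoters of Cebpa, Cebpb and Trib3 are printed here because these genes rose together and their letters could be read for C/EBP sites and C/EBP-ATF composite sites. They are the 250 bases before the transcript start in RefSeq (GRCm38.p6), at chr7:35119043-35119292 (plus strand), chr2:167688665-167688914 (plus strand) and chr2:152344061-152344310 (minus strand), 5′ to 3′, with matches to the 6 motifs named below in capitals.
Cebpa: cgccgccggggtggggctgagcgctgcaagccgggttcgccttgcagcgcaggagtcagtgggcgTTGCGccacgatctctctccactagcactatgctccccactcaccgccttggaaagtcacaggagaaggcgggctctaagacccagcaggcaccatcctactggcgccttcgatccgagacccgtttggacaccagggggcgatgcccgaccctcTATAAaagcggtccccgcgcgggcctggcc
Cebpb: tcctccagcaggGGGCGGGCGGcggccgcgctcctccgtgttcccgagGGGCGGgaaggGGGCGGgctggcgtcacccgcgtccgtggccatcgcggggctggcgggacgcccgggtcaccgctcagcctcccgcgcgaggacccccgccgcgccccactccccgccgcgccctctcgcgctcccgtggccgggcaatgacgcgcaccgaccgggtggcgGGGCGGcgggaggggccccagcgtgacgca
Trib3: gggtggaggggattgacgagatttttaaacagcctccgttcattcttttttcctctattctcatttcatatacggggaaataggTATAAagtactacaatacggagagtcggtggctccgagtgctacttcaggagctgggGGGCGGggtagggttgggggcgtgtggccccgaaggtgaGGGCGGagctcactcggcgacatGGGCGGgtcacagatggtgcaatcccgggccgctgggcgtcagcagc
Both strands were searched for 6 motifs, the C/EBP palindrome TTGCNNAA, the single-arm C/EBP site TTGCG, the C/EBP-ATF composite TGATGNAA, the CCAAT box CCAAT, the TATA box TATAA and the GC box GGGCGG. Sites of ATF factors without C/EBP were not searched, so letters left in lower case can hold them. A single-arm site can lie within a palindrome, and GC boxes can overlap each other. Of 27025 RefSeq promoters of this length, 9.55% held the palindrome, 14.6% the single-arm site, 3.53% the composite, 34.5% a CCAAT box, 23.5% a TATA box and 32.9% a GC box.

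The Cebpa promoter held 1 single-arm site, starting 185 bases before the transcript start, and 1 TATA box starting 30 bases before it. The Cebpb promoter, with 81.6% G and C against a median of 52.0% in all promoters, held 5 GC boxes, of which the first 2 overlap. The Trib3 promoter held a TATA box 166 bases and GC boxes 109, 70 and 47 bases before the start. Among the other genes with an entry, Trib2 held GC boxes 138 and 120 bases before the start, in a window that a longer RefSeq gene model reaches into and that is therefore not printed, and Cebpg held 2 CCAAT boxes on the opposite strand, 89 and 28 bases before it. Of the 8 genes, 5 had an entry in the promoter table and were searched, and Cebpd, Cebpe and Trib1 were not searched. These are matches of letters, and no binding was measured.

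The order of the levels, compared per length in FPKM, differed between the groups. In normal MPs it ran from Cebpa (38.9 ± 1.95, SD, n = 3) and Cebpe (35.7 ± 5.23) through Cebpb (18.9 ± 1.62), Trib2 (18.6 ± 1.89), Cebpg (13.5 ± 0.948) and Cebpd (11.3 ± 1.65) to Trib1 (0.364 ± 0.155) and Trib3 (0.0896 ± 0.0440). The neighbours Cebpa and Cebpe, Cebpb and Trib2, and Cebpg and Cebpd overlapped in the ranges of their libraries. Within each MP library Cebpa was above Cebpe and Cebpg above Cebpd, by as little as 1.03-fold for the first pair, whereas the order of Cebpb and Trib2 changed between libraries. In APL progenitors Cebpa (98.8 ± 13.1) was followed by Cebpb (78.5 ± 18.8) and Cebpd (77.9 ± 9.67), 3 genes whose ranges overlapped with their neighbours', Cebpa being above Cebpb within each library and the order of Cebpb and Cebpd changing, then by Cebpe (42.9 ± 7.08) and Cebpg (17.5 ± 0.415). Trib1 (2.55 ± 0.801) and Trib3 (2.35 ± 0.316) overlapped as well and changed order between libraries, and Trib2 (0.0509 ± 0.00691) came last.

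Summed over its 5 genes, C/EBP mRNA amounted to 124, 108 and 122 FPKM in MP 1 to 3 and 268, 364 and 314 FPKM in APL 1 to 3, a 2.67-fold higher mean. Cebpa kept its share of this sum, 32.9% ± 1.23 in MPs and 31.4% ± 0.625 in APL progenitors. The share of Cebpd went from 9.57% ± 0.900 to 24.8% ± 1.03 and that of Cebpb from between 15.8% and 16.3% in the MP libraries to 24.7% ± 2.18, while that of Cebpe went from 30.1% ± 2.32 to 13.6% ± 0.94 at a level that did not pass the test. The share of Cebpg also went down, from 11.5% ± 1.69 to 5.61% ± 0.802, although its level was higher in every APL library. Shares of 1 sum depend on each other, and they are given without a test.

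The Tribbles genes summed to 17.2, 19.0 and 20.8 FPKM in MP 1 to 3 and to 4.996, 3.82 and 6.04 FPKM in APL 1 to 3. Trib2 made up 97.6% ± 1.14 of this sum in the MPs and 1.05% ± 0.207 in the APL progenitors, where Trib1 made up 50.8% ± 4.75 and Trib3 48.2% ± 4.60. The summed C/EBP mRNA was 6.27 ± 0.853 times the summed Tribbles mRNA in MPs and 67.1 ± 24.6 times in APL progenitors. For Cebpa against Trib2 alone the ratio went from 2.11 ± 0.229 to 1958 ± 296. Against Trib1 it went from 123 ± 56.1 to 42.3 ± 18.4, the opposite direction, with all APL libraries below all MP libraries.

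**Figure D3:**
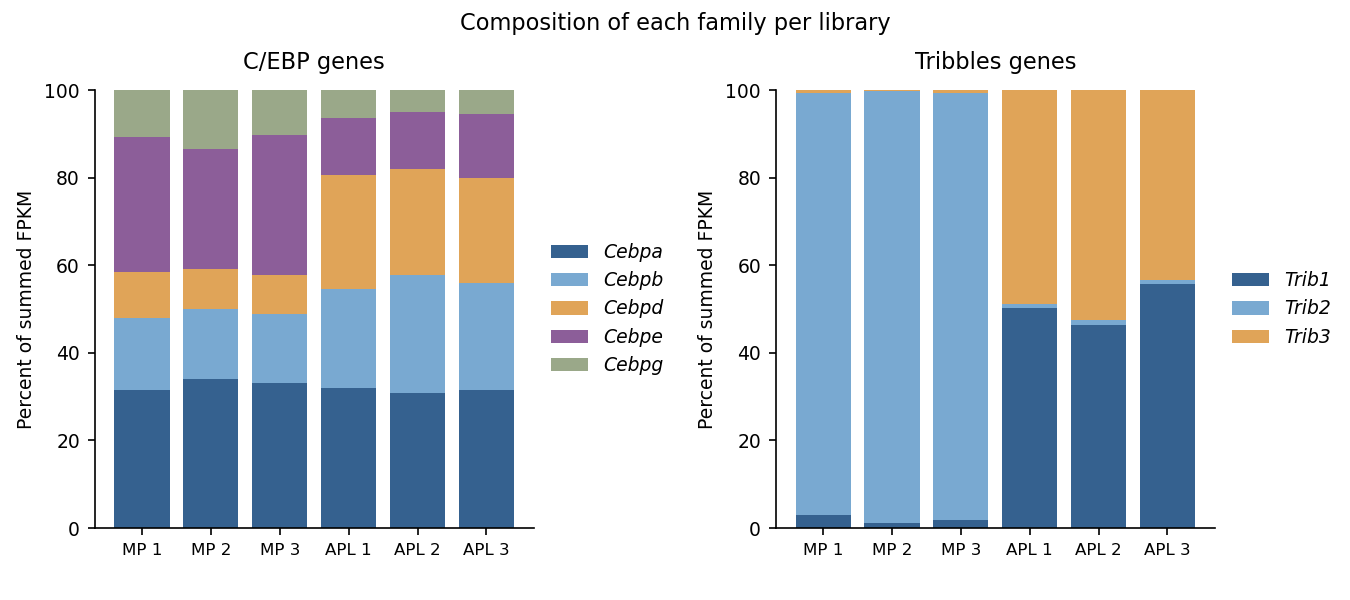
Share of each gene in the summed FPKM of its family, one bar per library. The Cebpa share stays near 32% in all 6 libraries while Cebpb and Cebpd widen in APL, and Trib2 fills 96.5% to 98.7% of the Tribbles bar in MPs and about 1% in APL.

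Genes known to be activated by C/EBP factors in granulocyte-macrophage progenitors were mostly higher in the APL progenitors: 9 of 12 rose, 1 fell and 2 were not called, with a median log2 fold change of 1.56 against -0.10 over all genes. Of all genes tested 21.7% rose and 24.4% fell, and the counts of this list and of every list below stand beside these shares. The azurophil granule protease genes Elane (2719 ± 297 to 9386 ± 1008 FPKM, log2 1.78, SE 0.16, adjusted p = 1.2e-05) and Ctsg (log2 2.55, SE 0.13) rose, as did Mpo (log2 1.22, SE 0.25), which encodes myeloperoxidase, and Id1 (log2 2.65, SE 0.15), an inhibitor of bHLH factors. Prtn3, another azurophil granule protease gene, was not called (log2 0.12, SE 0.12, adjusted p = 0.38). It was named after its values were seen. Csf1r, the M-CSF receptor gene of the monocytic lineage, was the 1 that fell, from 12.6 ± 1.06 to 3.61 ± 0.397 FPKM (log2 -1.81, SE 0.11). Of this list 4 genes are also on the promyelocyte marker list below and 1 on the monocyte list. Spi1, which rose, is also 1 of the factors of the Cebpa enhancer below and is counted in both lists.

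Of 6 secondary granule genes that need C/EBPε, 0 rose by limma's test, also at an unadjusted p under 0.05, 2 fell and 4 were not called, with a median of -0.16. Over all genes 21.7% were called higher and 24.4% lower, and a list of 6 genes is small beside such shares. Ltf (lactoferrin) went from 132 ± 35.8 to 48.4 ± 6.56 FPKM (log2 -1.42, SE 0.20, adjusted p = 2.4e-04) and Ngp, a neutrophil granule protein gene, from 629 ± 210 to 222 ± 20.9 FPKM (log2 -1.46, SE 0.24). Camp (log2 -0.27) and Mmp9 (log2 0.36) did not pass. Summed over the 6 genes, MP 1 to 3 held 2331, 1111 and 1947 FPKM and APL 1 to 3 held 1064, 1222 and 1083 FPKM. MP 2, which was also the lowest library for Cebpe, lay within the APL range and the other MP libraries above it. The list's median was 0.036 without MP 1, -0.0094 without MP 3 and -0.49 without MP 2, and without MP 3 1 gene rose.

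Among 5 proliferation and stem cell genes that C/EBPα holds down, 0 rose by limma's test, also at an unadjusted p under 0.05. Over all genes 21.7% were called higher and 24.4% lower, and a list of 5 genes is small beside such shares. In this list 2 fell, at a median of -0.39. These 2 were Mycn (5.93 ± 0.949 to 0.0570 ± 0.0567 FPKM, log2 -6.79, SE 0.65) and Sox4 (16.8 ± 0.408 to 0.144 ± 0.0582 FPKM, log2 -6.82, SE 0.28), a pair of transcription factor genes of immature progenitors. Mycn held 3, 8 and 0 fragments in APL 1 to 3, so that its fold change depends on the pseudocount. Myc (log2 -0.39, adjusted p = 0.0028) was under the fold threshold and E2f1 (log2 0.20, adjusted p = 0.12) did not pass. Myc lies on chromosome 15, as Trib1 does, where the median log2 fold change was 0.46.

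Of 8 factors that bind the myeloid enhancer of Cebpa, 3 rose, 3 fell and 2 were not called, with a median of 0.10. The shares over all genes were 21.7% higher and 24.4% lower. Spi1, listed as Sfpi1, encodes PU.1 and rose from 75.0 ± 8.52 to 213 ± 23.1 FPKM (log2 1.47, SE 0.12, adjusted p = 8.7e-06). Gata2 (35.6 ± 6.23 to 0.883 ± 0.187 FPKM, log2 -5.33) and Tal1 (42.3 ± 3.65 to 9.75 ± 0.366 FPKM, log2 -2.09), which serve stem cells and the erythroid and megakaryocytic lineages, fell, and Myb fell by 0.86 on the log2 scale.

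The bZIP relatives, which pair with C/EBP proteins or bind overlapping sites, were split, with 5 of 12 tested genes rising, 5 falling and a median of 0.51. Among all genes 21.7% rose and 24.4% fell. The 13th on the list, Batf3, did not pass the filter on low values. Atf4, the translation-controlled factor of the stress response, rose from 126 ± 14.6 to 276 ± 27.3 FPKM (log2 1.13, SE 0.12) and lies on chromosome 15. Its relative Atf5 (log2 2.23, SE 0.12) and the repressor Nfil3 (log2 2.22, SE 0.11) rose, and Hlf, a stem cell factor, fell from 4.85 ± 0.688 to 0.0467 ± 0.0168 FPKM (log2 -6.51, SE 0.25). Fos was called lower (log2 -0.79, SE 0.31, adjusted p = 0.045) although its libraries overlapped between groups, as did those of Jun (log2 -0.69, SE 0.25, adjusted p = 0.033), which was named after its values were seen. The list's median was 0.15 without MP 2, 0.26 without APL 3 and 0.25 under each of the other filters on low values. The count of falling genes was 2 without MP 1, MP 3, APL 1 or APL 2, one at a time.

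Around Trib3, 10 genes of the ATF4-CHOP stress response gave 3 higher, 1 lower and 6 not called, with a median of 0.26. These counts were near the shares over all genes, 21.7% higher and 24.4% lower. Chac1, a glutathione-degrading enzyme gene, rose from 0.237 ± 0.0479 to 5.42 ± 0.383 FPKM (log2 4.38, SE 0.21, adjusted p = 2.8e-07) and Nupr1, a stress-induced nuclear protein gene, rose (log2 2.74, SE 0.34). Vldlr, a lipoprotein receptor gene, was called lower, with 73, 87 and 93 fragments in MP 1 to 3 and 1 fragment in each APL library, under the floor of 3, so that no fold change is given. The serine synthesis genes Psat1 (log2 0.30) and Phgdh (log2 -0.15), the most abundant of the list, were not called. In place of 1 gene, 2 fell without MP 2 or without APL 3, and the median was 0.069 without MP 2 and 0.40 without MP 3.

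Tribbles proteins act through the COP1-CUL4 ligase and through kinases that they bind. Of 14 genes of these partners, 2 rose, 2 fell and 10 were not called, with a median of -0.15, where 21.7% of all genes rose and 24.4% fell. Dda1, a ligase subunit gene, went from 20.8 ± 1.95 to 33.7 ± 3.41 FPKM (log2 0.69, SE 0.11) and Map2k1, which encodes the MEK1 kinase, from 23.6 ± 0.720 to 37.4 ± 2.17 FPKM (log2 0.66, SE 0.07). Cul4b, a cullin scaffold gene, fell (log2 -0.68, SE 0.07), while Ddb1 (log2 -0.43), the adaptor of the ligase, and the kinase gene Akt1 (log2 0.06) were not called. The changes of Dda1 and Map2k1 were close to the 1.5-fold threshold, and neither was called when every library was scaled to the same total. Without MP 3 or without APL 3, 1 gene fell in place of 2.

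**Figure D4:**
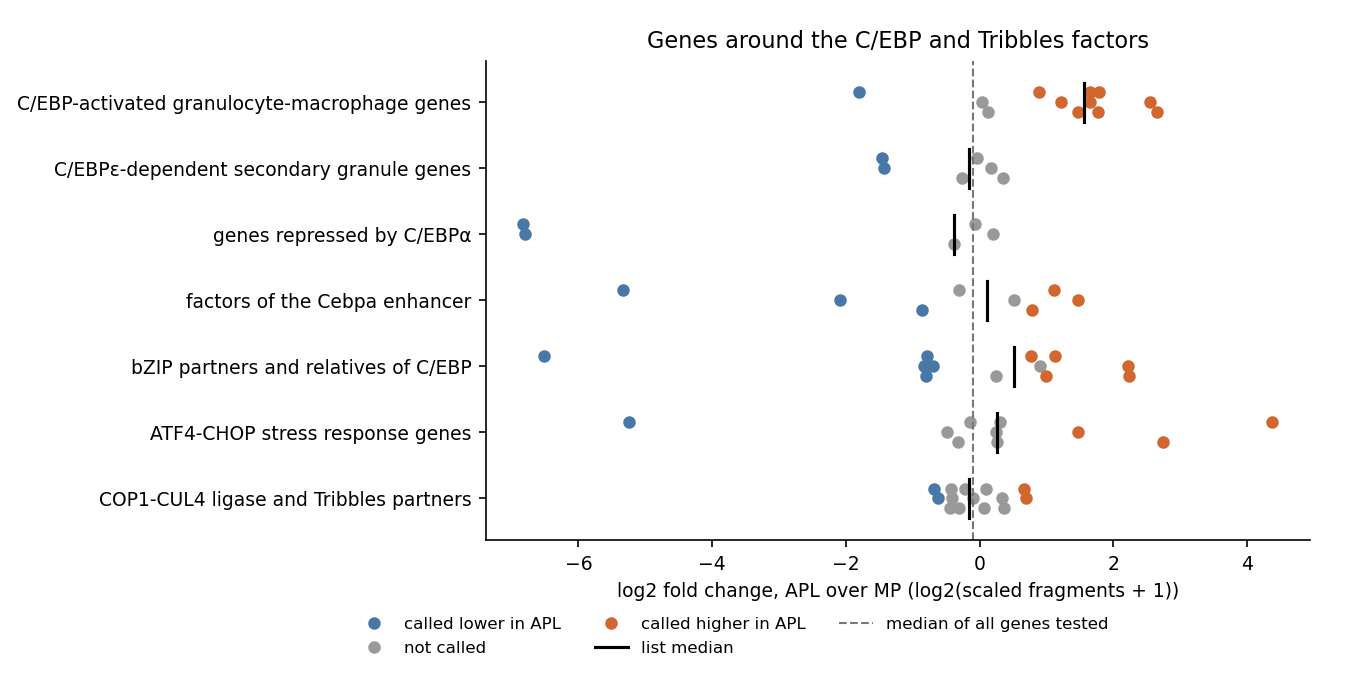
log2 fold change of every tested gene on the 7 lists, APL over MP, in orange or blue where it was called and grey where it was not, with each list's median (bar) and that of all genes (dashed). The C/EBP-activated list lies mostly to the right with a median of 1.56, and the ligase and partner list lies close to 0.

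The sorted cells were checked against markers, and cell type markers moved with the genes above. In bulk RNA, fewer cells of a type and less RNA per cell cannot be told apart. The gate gene Kit was present in both groups, at 72.4 ± 1.96 FPKM in MPs and 40.4 ± 0.623 in APL progenitors (log2 -0.85, SE 0.07), and Ly6a, which encodes Sca-1, rose from 1.36 ± 0.355 to 2.18 ± 0.175 FPKM (log2 0.68, SE 0.26, adjusted p = 0.043), a level far under that of Kit in both groups. Sca-1 was sorted against in the MPs, and no such step is stated for the APL progenitors. Cd34 fell from 94.5 ± 15.4 to 1.15 ± 0.110 FPKM.

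Erythroid markers fell beside Trib2: all 7 tested of 8 listed were lower in APL progenitors, Hbb-b1 not being tested. Their summed level was 1549, 1643 and 2038 FPKM in MP 1 to 3 and 12.9, 24.05 and 16.1 FPKM in APL 1 to 3. The most abundant was Car1, a carbonic anhydrase gene, at 1406 ± 243 FPKM in MPs and 5.27 ± 1.23 in APL progenitors. The defining factors Gata1 (67.1 ± 8.20 to 0.432 ± 0.266 FPKM) and Klf1 (95.5 ± 10.5 to 0.477 ± 0.0670 FPKM) were near 0 in the APL libraries. Of 6 megakaryocyte markers 5 fell and 1 was not called, their sum being 72.2, 68.8 and 104 FPKM in the MPs and 3.53, 3.74 and 4.83 FPKM in the APL cells, with Pf4 the most abundant and Gp9 at 0 in 2 of 3 APL libraries. Falls were not particular to these lineages. Of 6 lymphoid markers tested 4 fell and 1 rose, and of 5 mast cell and basophil markers 3 fell and 1 rose. Cd34, Hlf, Sox4 and Mycn fell as well. The part of any of these cell types in the Trib2 difference was not tested.

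Promyelocyte markers were mostly higher beside the C/EBP genes, and late neutrophil markers were split. Of 6 promyelocyte and granulocytic progenitor markers 4 rose and 1 fell, and their summed level was 10079, 8855 and 8941 FPKM in MP 1 to 3 and 24199, 28643 and 27904 FPKM in APL 1 to 3, with Elane the most abundant. Fcnb, a ficolin gene, was the 1 that fell (log2 -3.06, SE 0.21). Of 8 late neutrophil markers 3 rose, 2 fell and 3 were not called, at a median log2 fold change of 0.05, and S100a8, the most abundant, took most of a sum of 18433, 11859 and 15367 FPKM in MPs and 57069, 59671 and 45784 FPKM in APL progenitors. No marker of either list was at 0 in any library. Of the late neutrophil list 4 genes are also on the secondary granule list. Sorting as Lin-Sca-1- is stated for the MPs only, so leukemia, sorting gate and cell composition cannot be told apart in the C/EBP and marker differences. The part of each was not tested.

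**Figure D5:**
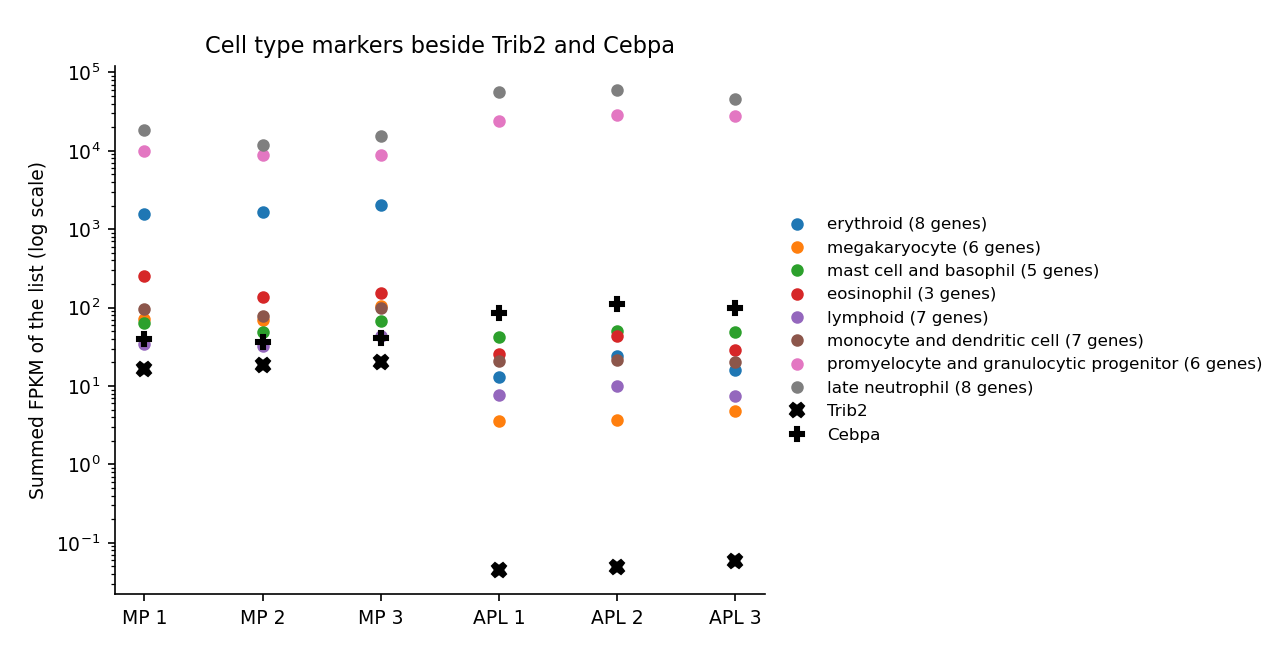
Summed FPKM of each marker list in each library (log axis), with the FPKM of Trib2 and Cebpa as black symbols. The erythroid sum drops from 1549 FPKM or more in every MP library to 24.05 FPKM or less in every APL library, where Trib2 drops as well, and the promyelocyte and late neutrophil sums are higher in all APL libraries, as is Cebpa.

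For the genes other than Cebpb, the 2 genes with the most similar pattern over the 6 libraries were found by the Euclidean distance between log2(scaled fragments + 1) profiles, each centred on its mean, among 10309 or 10310 genes with a mean of at least 100 scaled fragments. The nearest to Cebpa were Plod1 (distance 0.121) and Kcnk12 (0.139), to Cebpd Plxnd1 (0.171) and Inpp5j (0.193), to Cebpe Mgst3 (0.149) and 3010026O09Rik (0.158), and to Cebpg Slc39a8 (0.0923) and 8430410K20Rik (0.0947). The nearest to Trib2 were Aqp1 (0.393), a water channel gene that fell from 291 FPKM to 1.08 FPKM on average, and the erythroid marker Car1 (0.458). Trib1 and Trib3 had no close match, the nearest being S100a4 (0.719) and Ly6c1 (0.737) for Trib1 and 1810033B17Rik (0.629) and Npr1 (0.667) for Trib3. Ly6c1 lies on chromosome 15, as Trib1 does. With 6 libraries in 2 groups, likeness here is mostly likeness of the difference between groups.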

How the data were processed

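RNA-seq of 3 MP and 3 APL libraries was analysed. The table that the authors deposited holds, for each gene and library, FPKM (fragments relative to transcript length and mapped fragments), an estimated fragment number, and a locus. The deposited fragment values are a signal scaled per library: dividing by the smallest step (0.867 to 1.23) gave whole numbers, within 0.02, for 87.3% to 89.4% of values up to 1000 fragments, too few for a count test. The paper's methods name STAR, mm9, HTSeq and DESeq2, the submitters' processing notes CASAVA 1.8, TopHat2 2.0.6 and mm10, and the loci follow GRCm38. The tool that made the table is not given in the sources used here.

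limma 3.58.1 (R 4.3.3, lmFit and eBayes with a trend) was fitted on log2(scaled fragments + 1) for 14595 genes and tested on simulated data. Count models had been planned for raw counts only. Exact permutation tests and summaries used Python 3.11.15 with scipy 1.17.1. Floors cover counting error only. Genes of the lists were matched by name, with older symbols for Spi1 (Sfpi1) and Cop1 (Rfwd2). The members and lists were chosen with earlier results of these data known. All 8 members are described. Of each list at most 5 genes are named, the 3 with the largest absolute log2 fold change and the 2 with the highest mean FPKM. Jun, Prtn3 and the untested Batf3, Hbb-b1 and Cd3e are named besides. Further, 2 similar genes are named per member, except for Cebpb, for which they are not reported here. Alternatives were other filters, pseudocounts, scalings, FPKM, a replicate block, eBayes without a trend and leaving out each library. The treated leukemias of the study were not analysed here.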

Additional observations from a re-analysis of the deposited data

How the results depend on the processing

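All 8 genes kept their direction and their side of the threshold under all 17 alternatives. The log2 fold changes ranged from 1.21 to 1.43 for Cebpa, 1.78 to 2.11 for Cebpb, 2.65 to 2.88 for Cebpd, 0.09 to 0.38 for Cebpe, 0.29 to 0.49 for Cebpg, 2.46 to 3.15 for Trib1, -8.37 to -6.95 for Trib2 and 3.71 to 4.96 for Trib3. Trib1, Trib3 and, in APL cells, Trib2 rest on few fragments.

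The counts called over all genes, 3167 higher and 3558 lower, stayed within 1.5 times of these. Scaling every library to the same total lowered the median of all genes by 0.13 and gave 60.8% of calls as lower against 52.9%. It also gave list medians of 1.43 (C/EBP-activated), -0.29 (secondary granule), -0.52 (repressed), -0.026 (enhancer factors, reversed from 0.10), 0.13 (ATF4-CHOP) and -0.28 (ligase and partners), with 2 ATF4-CHOP genes lower and 0 ligase genes higher. The C/EBP-activated median was 1.36 with quantile normalization and the enhancer factor median 0.019 on FPKM. Median ratio scaling gave 0.32 for the ATF4-CHOP median and -0.090 for the ligase median, with 1 ligase gene lower. Requiring a value of 1 in all 6 libraries left 1 repressed gene lower, at a median of -0.23, and 0 ATF4-CHOP genes lower, because genes near 0 in APL cells drop out. Without a trend in eBayes 2 bZIP genes were lower.

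Leaving out 1 library at a time gave medians of 1.39 to 1.61 (C/EBP-activated), -0.49 to 0.036 (secondary granule), 0.15 to 0.65 (bZIP) and 0.069 to 0.40 (ATF4-CHOP), and counts of 0 to 1 secondary granule genes higher and of 2 to 5 bZIP, 1 to 2 ATF4-CHOP and 1 to 2 ligase genes lower. Where these values moved, the cause was not tested.

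By scaled fragments, which do not correct for length, the ranks of level in MPs were 2 for Trib2, 3 for Cebpg, 4 for Cebpe, 5 for Cebpd and 6 for Cebpb, and in APL progenitors 2 for Cebpd, 3 for Cebpg, 4 for Cebpb and 5 for Cebpe.

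With the replicate number as a block, 3164 genes were called higher and 3589 lower, and no call of the 8 genes changed (Trib2 -8.25, Cebpe 0.24). Deviations of same-numbered MP and APL libraries from their group means correlated at 0.042 to 0.21 over 10310 genes (mean 0.15). Those of other pairs correlated at -0.34 to 0.20 (mean -0.077). The numbers were not taken to pair the samples, although with 3 libraries per group this check cannot exclude pairing.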

Other observations

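Markers of other lineages that the c-Kit+ gates could hold were also measured. Of 7 monocyte and dendritic cell markers 5 fell and 1 rose, and their summed level was 96.8, 79.2 and 99.1 FPKM in MP 1 to 3 and 20.6, 21.7 and 20.0 FPKM in APL 1 to 3. Irf8, a transcription factor gene of that lineage and the most abundant of the list in MPs, fell from 40.9 ± 4.78 to 1.35 ± 0.198 FPKM (SD, n = 3; log2 -4.91, SE 0.14). All 3 eosinophil markers fell, with a sum of 253, 138 and 153 FPKM in MPs and 25.8, 42.8 and 28.4 FPKM in APL progenitors. Prg2, the major basic protein gene, held most of it.

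Of 5 mast cell and basophil markers 3 fell and 1 rose. Cpa3, a mast cell protease gene, fell from 34.0 ± 6.61 to 0.786 ± 0.340 FPKM (log2 -5.48, SE 0.31), whereas the basophil protease gene Mcpt8 rose from 17.4 ± 2.60 to 38.6 ± 2.75 FPKM (log2 1.13, SE 0.14), so that the summed level was 63.9, 49.2 and 68.0 FPKM in MPs and 42.1, 49.9 and 48.9 FPKM in APL progenitors. Of 7 lymphoid markers, 6 were tested, 4 fell and 1 rose, with sums of 34.0, 32.8 and 43.9 FPKM in MPs and 7.69, 9.92 and 7.42 FPKM in APL progenitors. Dntt, the terminal transferase gene, fell from 22.5 ± 4.65 to 0.248 ± 0.0693 FPKM, and Vpreb1, a surrogate light chain gene of pre-B cells, rose from 0.661 ± 0.158 to 7.48 ± 1.21 FPKM (log2 3.35, SE 0.26). Cd3e was at 0 in 3 of 3 MP and 2 of 3 APL libraries.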
